A study of Mus musculus with 9 samples.

Results

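The genes described here were 9 members of the tumour necrosis factor (TNF) superfamily of ligands and its receptors, measured in mouse dendritic cells (DCs). They were 6 ligand genes (*Tnf*, *Lta*, *Ltb*, *Tnfsf10*, *Tnfsf13b* and *Tnfsf15*) and 3 receptor genes (*Tnfrsf1a*, *Tnfrsf1b* and *Fas*), chosen by name from the 55471 genes of the count table. The choice by name applied no cutoff on a measured value, although earlier results of these data were known. All 9 passed the filter on low counts and were among the 16260 genes tested. Of the 3 receptors, Fas and TNF receptor 1 (*Tnfrsf1a*) carry an intracellular death domain, while TNF receptor 2 (*Tnfrsf1b*) has none.

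RNA was sequenced from wild-type bone marrow-derived DCs of C57BL/6 mice, after depletion of ribosomal RNA. The study used female mice of 8 to 20 weeks. Marrow was cultured with granulocyte-macrophage colony-stimulating factor (GM-CSF, 20 ng/mL), which gives cultures of DCs together with macrophage-like cells, and all 3 groups shared this culture. The groups were unstimulated DCs, DCs activated with the bacterial component lipopolysaccharide (LPS), and DCs treated with the antiviral cytokine interferon-β (IFN-β), each for 6 h and each with 3 libraries labelled A, B and C. The study's other assays used LPS at 100 ng/mL and IFN-β at 1000 U/mL, and doses are not given in the labels of the libraries. The labels do not say whether the letters mark separate cultures or animals, so the p-values measure the spread between these libraries, which may be technical.

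Ligands of the TNF superfamily are made as trimeric membrane proteins, many of which are released by proteolysis, and they cluster trimers of their receptors on the target cell. Receptors with a death domain can recruit FADD and caspase-8 and kill the cell, and the other receptors bind TRAF adaptors, which lead to NF-κB and MAP kinase signalling. In DCs, Toll-like receptor signals are known to induce *Tnf*, and TRAIL, the product of *Tnfsf10*, is a known interferon target.

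Each library held between 33425803 and 43735199 counts. Of genes known to respond to Toll-like receptors, *Il12b* had a log2 fold change of 10.05 after LPS and 0.33 after IFN-β (adjusted p = 0.134). *Il1b* had 7.14 and 0.45 (adjusted p = 0.258 for IFN-β). *Il6* had 10.18 after LPS and rose after IFN-β as well, by 1.81 (adjusted p = 0.0013). Of interferon-stimulated genes, *Ifit1* had 6.47 and 4.93. The 14 markers of DCs and macrophages together reached 6714 to 8088 CPM (counts per 1000000 of the scaled library size) in the unstimulated libraries, 8800 to 10012 CPM with LPS and 7856 to 8374 CPM with IFN-β. Among them the DC marker *Cd209a* was nearly absent, with at most 16 counts in a library. Of 11 T and NK cell markers, 5 had at most 3 counts in every library. *Thy1* made up nearly all of that list's summed level of 487 to 658 CPM, and *Cd247* went from 0.123 CPM without stimulation to 7.20 CPM with LPS. The 7 B cell markers together stayed between 0.801 and 1.83 CPM, the 8 neutrophil markers between 9.61 and 25.6 CPM and the 6 mast cell and basophil markers between 0.0276 and 0.314 CPM. The 6 stromal and endothelial markers lay at 6.67 to 8.19 CPM without stimulation, at 27.1 to 46.0 CPM with LPS and at 9.63 to 10.4 CPM with IFN-β, of which *Pdgfrb* had 23.5 CPM with LPS. The part of other cells in the values below was not tested, and in bulk samples fewer cells of a type cannot be told apart from less RNA per cell.

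LPS raised 7 of the 9 genes, lowered *Tnfsf13b* and left *Ltb* short of the threshold. IFN-β raised 6 of the 9 genes, and *Lta*, *Ltb* and *Tnfsf13b* did not pass. Set directly against LPS, IFN-β left 7 genes lower, *Tnfsf13b* higher and *Ltb* not called. The threshold was an adjusted p of 0.05 in edgeR's quasi-likelihood test over all 16260 genes, of which LPS raised 32.8% and lowered 35.4%, IFN-β raised 23.6% and lowered 23.3%, and IFN-β against LPS gave 25.8% higher and 23.3% lower. At the median of the 9 genes the log2 fold change was 1.88 with LPS and 0.54 with IFN-β, against -0.04 and -0.02 over all genes tested. For IFN-β against LPS these medians were -0.91 and 0.02. The comparisons share libraries, since each group enters more than 1 of them. Of all genes called, 48.1% were higher under LPS, 50.3% under IFN-β and 52.5% for IFN-β against LPS. With scaling by library size only, in place of trimmed means (TMM), these shares were 21.9%, 22.3% and 77.9%, because that scaling moves the median of all genes by -0.58, -0.31 and 0.27 on the log2 scale. All levels below are in CPM of the TMM-scaled library size unless given per length. With 3 libraries against 3, the exact two-sided permutation test cannot go below p = 0.1, and it gave that value for every gene and comparison called by edgeR. It gave the same value for *Ltb* under LPS, which edgeR did not call, so it does not separate called genes from others.

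**Figure D1:**
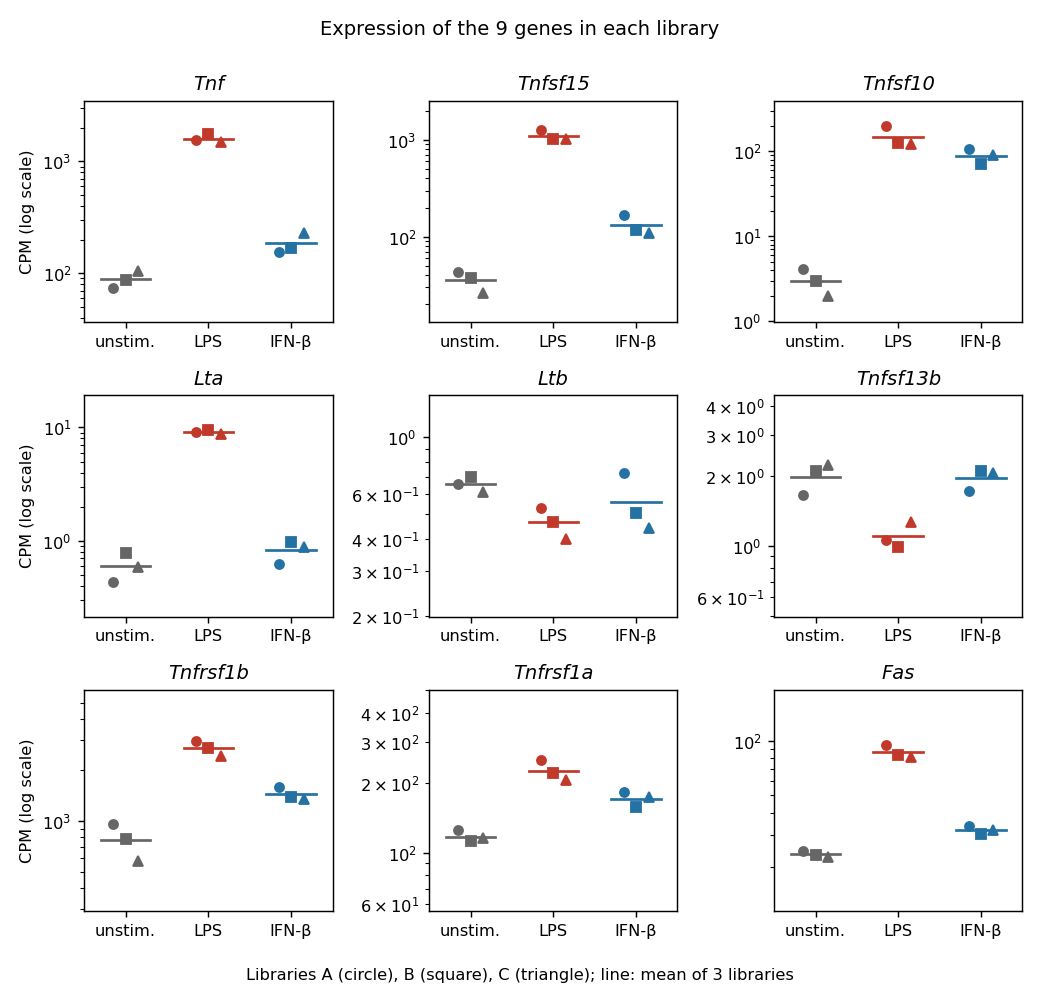
Level of each of the 9 genes in CPM (vertical log axis, with its own range for each gene) in unstimulated, LPS-activated and IFN-β-treated DCs, with circles, squares and triangles for libraries A, B and C and a line at the mean of 3 libraries. The LPS libraries lie above all others for *Tnf*, *Tnfsf15*, *Tnfsf10*, *Lta* and the 3 receptors, and below all others for *Tnfsf13b*, whereas the groups of *Ltb* lie close to each other.

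**Figure D2:**
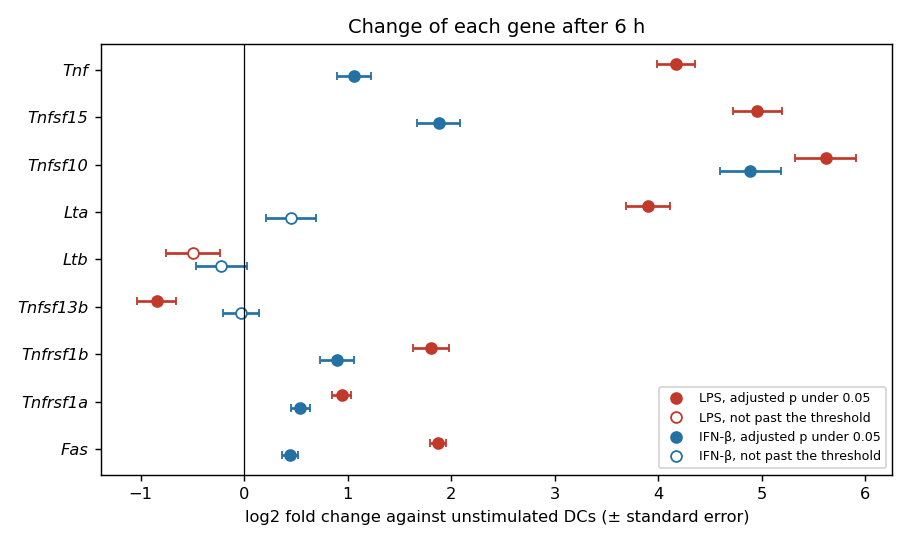
Log2 fold change of each gene against unstimulated DCs (horizontal axis) after LPS (red) or IFN-β (blue), with bars of 1 standard error and filled symbols for an adjusted p under 0.05. *Tnfsf10* had the largest change under both stimuli, at 5.62 and 4.89, and the filled symbol of *Tnfsf13b* under LPS lies at -0.85.

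*Tnf* encodes TNF itself, the ligand of both TNF receptors. In libraries A, B and C its level was 73.3, 87.0 and 105 CPM without stimulation, 1555, 1745 and 1478 CPM with LPS and 155, 169 and 230 CPM with IFN-β. The 3 groups did not overlap, and the IFN-β libraries lay between the others. Means were 88.4 ± 15.9, 1592 ± 137 and 185 ± 39.9 CPM (SD, n = 3). LPS raised *Tnf* 18.0-fold, a log2 fold change of 4.17 (standard error, SE, 0.18, adjusted p = 1.8e-08), and IFN-β raised it 2.09-fold, a log2 fold change of 1.06 (SE 0.16, adjusted p = 4.1e-04). IFN-β against LPS gave a log2 fold change of -3.11 (SE 0.17, adjusted p = 2.6e-07).

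*Lta* encodes lymphotoxin-α, which as a homotrimer also binds both TNF receptors and with lymphotoxin-β forms the membrane ligand of the lymphotoxin-β receptor. It was a low-level gene, with 17, 35 and 26 counts in the unstimulated libraries, 255, 328 and 283 with LPS and 27, 37 and 32 with IFN-β. These counts correspond to 0.43, 0.79 and 0.59 CPM, to 9.02, 9.56 and 8.69 CPM and to 0.63, 0.98 and 0.88 CPM. The LPS libraries stood apart, and the IFN-β range overlapped the unstimulated one. LPS raised *Lta* 14.9-fold, a log2 fold change of 3.90 (SE 0.21, adjusted p = 6.3e-08). Under IFN-β the log2 fold change was 0.45 (SE 0.24, adjusted p = 0.153), and against LPS it was -3.45 (SE 0.20, adjusted p = 3.7e-07).

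*Ltb* encodes lymphotoxin-β, the partner that holds lymphotoxin-α at the cell surface. It had 26, 31 and 27 counts in the unstimulated libraries, 15, 16 and 13 with LPS and 31, 19 and 16 with IFN-β, with means of 0.655, 0.465 and 0.557 CPM. All LPS libraries lay below the unstimulated ones, while the IFN-β libraries overlapped both groups. LPS gave it a log2 fold change of -0.50 (SE 0.26, adjusted p = 0.112), IFN-β -0.22 (SE 0.24, adjusted p = 0.494), and IFN-β against LPS 0.28 (SE 0.27, adjusted p = 0.421). At 13 to 31 counts a library, a change of the size of these standard errors was not detectable. With scaling by library size only, the fall under LPS passed the threshold, with a log2 fold change of -1.07 (adjusted p = 0.00272).

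The 3 genes lie side by side on mouse chromosome 17 within 10913 bp (GRCm38, GENCODE M21). *Ltb* (ENSMUSG00000024399) is on the plus strand at chr17:35194439-35196320, *Tnf* (ENSMUSG00000024401) on the minus strand at chr17:35199381-35202007 and *Lta* (ENSMUSG00000024402) on the minus strand at chr17:35203165-35205351. The gaps are 3061 bp between *Ltb* and *Tnf* and 1158 bp between *Tnf* and *Lta*, and no exon of a member shares bases with an exon of another gene. The sequences before their starts are printed because 3 neighbours so close to each other differed in their values under LPS. They are the RefSeq windows of 250 bases before each start, read 5′ to 3′ on the gene's strand, at chr17:35202008-35202257 for *Tnf*, chr17:35205352-35205601 for *Lta* and chr17:35194257-35194438 for *Ltb* (GRCm38.p6). For *Ltb* the last 68 bases of its window, which GENCODE annotates as part of the gene, are left out. Capitals mark matches to the motifs described next.
Tnf: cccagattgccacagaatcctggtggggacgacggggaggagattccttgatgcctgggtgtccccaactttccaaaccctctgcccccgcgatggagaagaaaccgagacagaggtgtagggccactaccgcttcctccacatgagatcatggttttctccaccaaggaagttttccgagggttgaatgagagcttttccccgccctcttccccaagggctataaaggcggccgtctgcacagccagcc
Lta: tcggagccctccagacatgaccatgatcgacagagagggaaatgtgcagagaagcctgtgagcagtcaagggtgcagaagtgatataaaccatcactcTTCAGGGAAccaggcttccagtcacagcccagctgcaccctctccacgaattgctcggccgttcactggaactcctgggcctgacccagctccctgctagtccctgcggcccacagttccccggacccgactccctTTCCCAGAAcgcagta
Ltb: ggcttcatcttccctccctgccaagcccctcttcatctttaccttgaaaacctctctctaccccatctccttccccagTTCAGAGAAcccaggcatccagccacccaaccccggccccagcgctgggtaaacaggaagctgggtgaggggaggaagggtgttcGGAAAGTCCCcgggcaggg

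The motifs searched on both strands were the core of the interferon-stimulated response element (GAAANNGAA), the gamma-activated sequence (TTCNNNGAA), the AP-1 site (TGANTCA) and the NF-κB consensus. The *Lta* window held 2 matches to the gamma-activated sequence, TTCAGGGAA and TTCCCAGAA. The *Ltb* window held 1 match to it, TTCAGAGAA, and an NF-κB match read on the minus strand, GGAAAGTCCC. The *Tnf* window held no match to any of the 4 motifs, which says only that these letters are not in this window. Over all 32851 such RefSeq windows, a match was found in 7.25% for NF-κB, 7.13% for the interferon-stimulated core, 7.02% for the gamma-activated sequence and 6.75% for AP-1. Of the 9 genes, with 10 windows in all, 1, 2, 5 and 2 had a match in the same order. For these counts the windows were searched whole, with any bases that GENCODE annotates as part of the gene. A match is a description of the letters and not evidence of a bound site.

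Other genes beside *Tnf* had smaller log2 fold changes under LPS than *Tnf* and *Lta*. *Lst1*, which starts 13.6 kb to the left of the *Tnf* start, rose under both stimuli, with log2 fold changes of 0.96 and 0.91. *Aif1*, at 25.9 kb to the left, had -0.15 under LPS (adjusted p = 0.55) and rose under IFN-β by 1.27. *Nfkbil1*, 33.8 kb to the right, rose under LPS by 0.90 and had 0.05 under IFN-β (adjusted p = 0.693). *Prrc2a* and *Ddx39b* rose under LPS by 0.41 and 0.33, less than the 0.58 by which scaling by library size only lowers the median of all genes, and *Atp6v1g2* passed the threshold under neither stimulus, with -0.19 and -0.06.

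**Figure D3:**
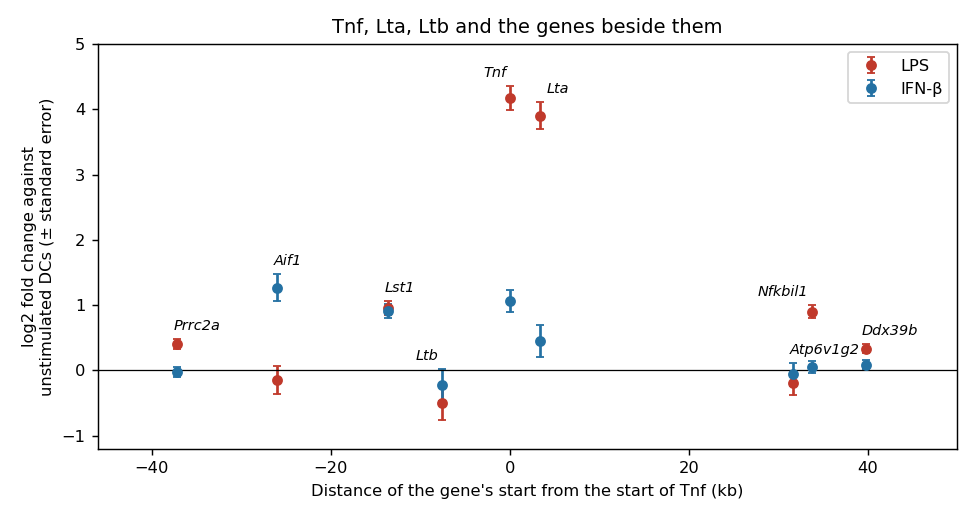
Log2 fold change against unstimulated DCs (vertical axis, bars of 1 standard error) of the genes around *Tnf*, placed by the distance of their start from the *Tnf* start in kb. Under LPS (red) *Tnf* and *Lta* lie at 4.17 and 3.90 and the other 7 genes lie at 0.96 or below, and under IFN-β (blue) *Aif1* is highest at 1.27.

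*Tnfsf10* encodes TRAIL, which in the mouse signals death through the receptor encoded by *Tnfrsf10b*. Its level was 4.08, 3.01 and 1.96 CPM in the unstimulated libraries, 197, 125 and 121 CPM with LPS and 107, 71.0 and 89.6 CPM with IFN-β. Both stimulated groups lay far above the unstimulated one, and the LPS and IFN-β ranges did not overlap but came close to each other. Means were 3.02 ± 1.06, 148 ± 43.2 and 89.2 ± 18.0 CPM (SD, n = 3). LPS raised *Tnfsf10* 49.1-fold, a log2 fold change of 5.62 (SE 0.30, adjusted p = 5.7e-08), and IFN-β raised it 29.7-fold, a log2 fold change of 4.89 (SE 0.29, adjusted p = 1.3e-06). It was the largest change of the 9 genes under each stimulus.

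IFN-β against LPS gave a log2 fold change of -0.73 for *Tnfsf10* (SE 0.23, adjusted p = 0.0247), which did not hold without some of the libraries. Without LPS library A the adjusted p was 0.0932 and the log2 fold change -0.47, without IFN-β library B 0.0988 and -0.59, and without IFN-β library C 0.0597 and -0.73. With scaling by library size only, the log2 fold change was -0.44 (adjusted p = 0.0839). The receptor gene *Tnfrsf10b* fell under LPS by 1.04 (adjusted p = 5.7e-04) and under IFN-β by 1.01 (adjusted p = 0.00133), in each case on the log2 scale.

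*Tnfsf15* encodes TL1A, the ligand of death receptor 3, a costimulator of T cells. Its level was 43.3, 37.3 and 26.2 CPM in the unstimulated libraries, 1271, 1030 and 1023 CPM with LPS and 168, 117 and 109 CPM with IFN-β. The groups did not overlap, and library A was the highest within each of them. LPS raised *Tnfsf15* 31.1-fold, a log2 fold change of 4.96 (SE 0.23, adjusted p = 2.6e-08), and IFN-β raised it 3.68-fold, a log2 fold change of 1.88 (SE 0.21, adjusted p = 4.5e-05). IFN-β against LPS gave -3.08 (SE 0.21, adjusted p = 1.1e-06). Its receptor gene *Tnfrsf25* was too low to be tested, with at most 7 counts in any library.

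*Tnfsf10* (ENSMUSG00000039304) lies on the plus strand at chr3:27317028-27342427 and *Tnfsf15* (ENSMUSG00000050395) on the minus strand at chr4:63727084-63745113. Their start windows, at chr3:27316827-27317027 and chr4:63745114-63745309, are printed because of the 6 ligand genes described here these had the largest rises under both stimuli. The 49 and 54 bases that GENCODE annotates as part of the gene are left out. Neither whole window held a match to any of the 4 motifs, so nothing is in capitals.
Tnfsf10: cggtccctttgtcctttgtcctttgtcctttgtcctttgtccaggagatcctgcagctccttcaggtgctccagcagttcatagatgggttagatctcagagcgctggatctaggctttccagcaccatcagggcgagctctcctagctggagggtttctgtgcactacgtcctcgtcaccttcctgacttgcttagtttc
Tnfsf15: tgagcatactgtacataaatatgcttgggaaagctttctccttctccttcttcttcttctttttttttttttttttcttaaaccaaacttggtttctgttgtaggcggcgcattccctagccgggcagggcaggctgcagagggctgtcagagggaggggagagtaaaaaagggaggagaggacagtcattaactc

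*Tnfsf13b* (ENSMUSG00000031497, chr8:10006467-10039072, plus strand) encodes BAFF, a survival factor of B cells. It had 65, 93 and 98 counts in the unstimulated libraries, 30, 34 and 41 with LPS and 73, 79 and 74 with IFN-β. These counts correspond to means of 1.98 ± 0.297, 1.10 ± 0.139 and 1.95 ± 0.210 CPM (SD, n = 3). All LPS libraries lay below all others, and the IFN-β libraries lay within the unstimulated range. *Tnfsf13b* fell under LPS, by a log2 fold change of -0.85 (SE 0.19, adjusted p = 0.0022), and was the 1 member that fell. Under IFN-β the log2 fold change was -0.03 (SE 0.18, adjusted p = 0.912), and for IFN-β against LPS it was 0.82 (SE 0.19, adjusted p = 0.00469). Of BAFF's receptors, *Tnfrsf13b* had -0.30 under LPS (adjusted p = 0.109) and -0.36 under IFN-β (adjusted p = 0.0786), *Tnfrsf17* had at most 1 count in a library, and *Tnfrsf13c* had 0 to 3 counts in the unstimulated libraries, 22 to 33 with LPS and 5 to 9 under IFN-β.

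*Tnfrsf1b* (ENSMUSG00000028599, chr4:145213463-145246870, minus strand) encodes TNF receptor 2, which signals through TRAF adaptors. Its level was 962, 775 and 581 CPM in the unstimulated libraries, 2979, 2714 and 2408 CPM with LPS and 1597, 1379 and 1350 CPM with IFN-β. The groups did not overlap, with LPS highest and library A the highest within each group. LPS raised *Tnfrsf1b* 3.49-fold, a log2 fold change of 1.80 (SE 0.17, adjusted p = 3.8e-06), and IFN-β raised it 1.87-fold, a log2 fold change of 0.90 (SE 0.17, adjusted p = 0.00129). IFN-β against LPS gave a log2 fold change of -0.91 (SE 0.17, adjusted p = 0.00107).

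*Tnfrsf1a* (ENSMUSG00000030341, chr6:125349362-125362484, plus strand) encodes TNF receptor 1, the death domain receptor of TNF. Its level was 125, 112 and 115 CPM in the unstimulated libraries, 250, 221 and 205 CPM with LPS and 183, 157 and 173 CPM with IFN-β. Again the groups did not overlap, and the LPS libraries were highest. LPS raised *Tnfrsf1a* 1.92-fold, a log2 fold change of 0.94 (SE 0.09, adjusted p = 3.9e-06), and IFN-β raised it 1.46-fold, a log2 fold change of 0.54 (SE 0.09, adjusted p = 5.9e-04). IFN-β against LPS gave -0.40 (SE 0.09, adjusted p = 0.0035), and with scaling by library size only -0.12 (adjusted p = 0.159).

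*Fas* (ENSMUSG00000024778, chr19:34290666-34327772, plus strand) encodes the death receptor of Fas ligand. Its level was 24.6, 23.4 and 22.8 CPM in the unstimulated libraries, 95.3, 83.5 and 81.0 CPM with LPS and 33.6, 30.5 and 31.9 CPM with IFN-β. The groups did not overlap and the spread within each was small, with an SD of 0.907 CPM over the unstimulated libraries. LPS raised *Fas* 3.67-fold, a log2 fold change of 1.88 (SE 0.08, adjusted p = 1.3e-08), and IFN-β raised it 1.36-fold, a log2 fold change of 0.44 (SE 0.08, adjusted p = 8.7e-04). The rise under IFN-β did not pass with scaling by library size only, where the log2 fold change was 0.13 (adjusted p = 0.093). IFN-β against LPS gave -1.44 (SE 0.08, adjusted p = 1.8e-07). *Fasl*, the gene of its ligand, had 0 counts in the 3 unstimulated libraries, where 3 counts correspond to 0.0674 to 0.076 CPM, and at most 3 counts in any other library.

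In the start windows of the other members, *Fas* had a match to the gamma-activated sequence (TTCTGGGAA) and to AP-1 (TGAGTCA). *Tnfrsf1b* had a gamma-activated sequence (TTCCCGGAA) and an interferon-stimulated core on the minus strand (TTCGCTTTC), and *Tnfrsf1a* had a gamma-activated sequence (TTCCGTGAA). Of the windows of *Tnfsf13b*, which has 2 annotated RefSeq starts, the second held an interferon-stimulated core (GAAAGTGAA) and an AP-1 match (TGAGTCA). The whole *Tnfrsf1a* window and both *Tnfsf13b* matches lie within what GENCODE annotates as the gene. Genes next to the receptors did not all change in their direction. *Plekhg6*, 176 bp from *Tnfrsf1a*, had at most 8 counts and was not tested, and *Scnn1a*, 4419 bp away, fell under LPS by 1.23 on the log2 scale. *Ltbr*, 35477 bp from *Tnfrsf1a*, encodes the lymphotoxin-β receptor and had log2 fold changes of 0.15 (adjusted p = 0.114) and 0.11 (adjusted p = 0.315). Beside *Tnfrsf1b*, *Tnfrsf8* at 20267 bp rose under both stimuli, by 2.66 and 0.97 on the log2 scale. *Vps13d*, 18458 bp from *Tnfrsf1b*, had 0.15 under LPS (adjusted p = 0.054). *Dhrs3* and *Miip* had also been listed as neighbours of *Tnfrsf1b* but lie further away and not next to it. They fell under LPS by 2.83 and 0.62.

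Levels of different genes were compared as counts per kilobase of merged exons, scaled like the CPM (RPKM), as a description with no test. In unstimulated DCs *Tnfrsf1b* was highest at a mean of 202 RPKM, followed by *Tnf* at 53.9, *Tnfrsf1a* at 45.3, *Fas* at 11.4 and *Tnfsf15* at 10.6 RPKM. *Tnfsf10*, *Lta*, *Ltb* and *Tnfsf13b* lay between 0.573 and 0.289 RPKM. The ranges over libraries of *Tnf* and *Tnfrsf1a*, of *Fas* and *Tnfsf15*, of *Tnfsf10* and *Lta* and of *Lta* and *Ltb* overlapped, so these neighbours did not differ beyond their spread. In LPS-activated DCs the order was *Tnf* at 972 RPKM, *Tnfrsf1b* at 707, *Tnfsf15* at 331, *Tnfrsf1a* at 87.0, *Fas* at 42.0, *Tnfsf10* at 28.0, *Lta* at 6.57, *Ltb* at 0.307 and *Tnfsf13b* at 0.161 RPKM, and no ranges of neighbours overlapped. The *Tnf* transcript thus stood above that of *Tnfrsf1b* under LPS and below it in the other groups. In IFN-β-treated DCs *Tnfrsf1b* was again highest at 378 RPKM, then *Tnf* at 113, *Tnfrsf1a* at 66.0, *Tnfsf15* at 39.2, *Tnfsf10* at 16.9 and *Fas* at 15.5 RPKM, with *Lta*, *Ltb* and *Tnfsf13b* between 0.602 and 0.284 RPKM. There the ranges of *Tnfsf10* and *Fas*, of *Lta* and *Ltb* and of *Ltb* and *Tnfsf13b* overlapped.

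Summed over the 18 ligand genes of the superfamily, a sum chosen after the values had been seen, the level per length came to 109 RPKM without stimulation (range over libraries 105 to 112), 1491 RPKM with LPS (1362 to 1558) and 265 RPKM under IFN-β (248 to 282). *Tnf* made up 49.2%, 65.2% and 42.3% of these sums on average and *Tnfsf15* 9.79%, 22.2% and 14.8%. *Tnfsf10* was at 0.529%, 1.87% and 6.37%, its largest share being that under IFN-β. *Tnfsf12*, which encodes TWEAK, was at 18.2%, 0.352% and 8.60%, and *Tnfsf8* at 8.76%, 5.84% and 17.0%. Since the sums differ between groups, a share does not follow the level of its gene. The level of *Tnfsf12* had log2 fold changes of -1.92 under LPS (adjusted p = 3.6e-08) and 0.20 under IFN-β (adjusted p = 0.0883). *Lta*, *Ltb* and *Tnfsf13b* were each at most 0.513% of the sum in any library. These shares are a description of transcripts and were not tested.

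**Figure D4:**
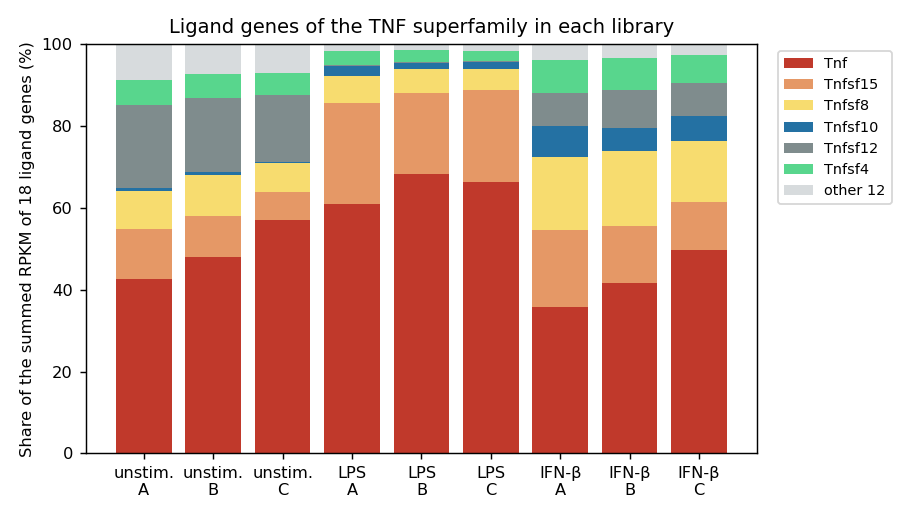
Share of the summed RPKM of 18 ligand genes (vertical axis, percent) in each of the 9 libraries, with 1 bar per library and 1 colour per gene. *Tnf* fills between 61.0% and 68.3% of the LPS bars and between 35.7% and 49.8% of the IFN-β bars, where *Tnfsf8* and *Tnfsf10* take larger shares than under LPS.

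For each member, the tested genes whose log2(CPM + 0.5) followed it most closely over the 9 libraries were found, as a description over libraries that share 3 conditions. Closest to *Tnf* were *Ehd1* (Pearson r = 0.999) and *Procr* (0.999), to *Lta* *Gm9895* (0.998) and *Pdzd2* (0.996), and to *Tnfsf15* *Kpna3* (0.997) and *Ino80d* (0.997). *Tnfsf10* was closest to *Gm6545* (0.999) and *Nono* (0.999), and *Tnfsf13b* to *S1pr1* (0.990) and *Gtf2h1* (0.988). *Fas* was closest to *Rab32* and *Srgn* (0.999), *Tnfrsf1a* to *Tlr2* (0.998) and *Mapk1ip1l* (0.998), and *Tnfrsf1b* to *Il3ra* (0.998) and *Osbpl3* (0.995). *Ltb* had no gene above 0.99, its closest being *St7l* (0.944) and *Pkp3* (0.925), whereas *Tnfsf10* had 183 such genes, *Fas* 115, *Tnfsf15* 103 and *Tnf* 92. Among the members themselves, *Tnf* went with *Fas* at 0.987, *Lta* at 0.981 and *Tnfsf15* at 0.967 but with *Tnfsf10* at 0.759, while *Tnfsf10* went most closely with *Tnfrsf1a*, at 0.942.

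Of 12 other ligand genes of the superfamily, 8 were tested. LPS raised 5 and lowered 3 of them, and IFN-β raised 3 and lowered 1, with median log2 fold changes of 2.30 and 0.47. Beside this list and the next ones stand the shares over all genes tested. They were 32.8% raised and 35.4% lowered under LPS, and 23.6% raised and 23.3% lowered under IFN-β. *Cd70*, a costimulator of T cells through CD27, had the largest rise under LPS at 4.39 (SE 0.21) and 0.52 under IFN-β (adjusted p = 0.315). *Tnfsf8*, the CD30 ligand and a chromosome 4 neighbour of *Tnfsf15*, rose by 3.19 and 2.23. *Tnfsf18*, the GITR ligand, had the largest rise under IFN-β, a log2 fold change of 3.48 (SE 0.56), from 4 to 12 counts in the unstimulated libraries to 43 to 158. *Tnfsf14*, which encodes LIGHT, fell most under each stimulus, with -3.23 and -1.57. The untested ligands were *Cd40lg*, *Fasl*, *Eda* and *Tnfsf11*, and *Cd40lg* had 0 counts in all 9 libraries.

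Of 25 other receptor genes, 19 were tested. LPS raised 7 and lowered 8, IFN-β raised 6 and lowered 4, and the medians were -0.04 and 0.12. With scaling by library size only, the split was 6 up and 13 down for LPS and 6 up and 8 down for IFN-β. *Cd40*, through which T cells license DCs, rose most under each stimulus, by 7.39 and 3.85. *Relt* had the largest fall under LPS at -1.99, and *Tnfrsf10b* the largest fall under IFN-β at -1.01. Like the 3 receptors above, *Cd40*, *Tnfrsf8*, *Tnfrsf11a*, *Tnfrsf13c* and *Tnfrsf14* were called higher under both stimuli. The rise of *Tnfrsf11a* under LPS was 0.30, less than the 0.58 by which scaling by library size only lowers the median of all genes. *Relt*, *Tnfrsf10b*, *Tnfrsf18* and *Tnfrsf21* were called lower under both stimuli. The share of all genes called in the same direction under both stimuli is not given here. Over all genes tested, LPS raised 32.8% and lowered 35.4%, and IFN-β raised 23.6% and lowered 23.3%. The 3 receptors were not tested against the others.

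**Figure D5:**
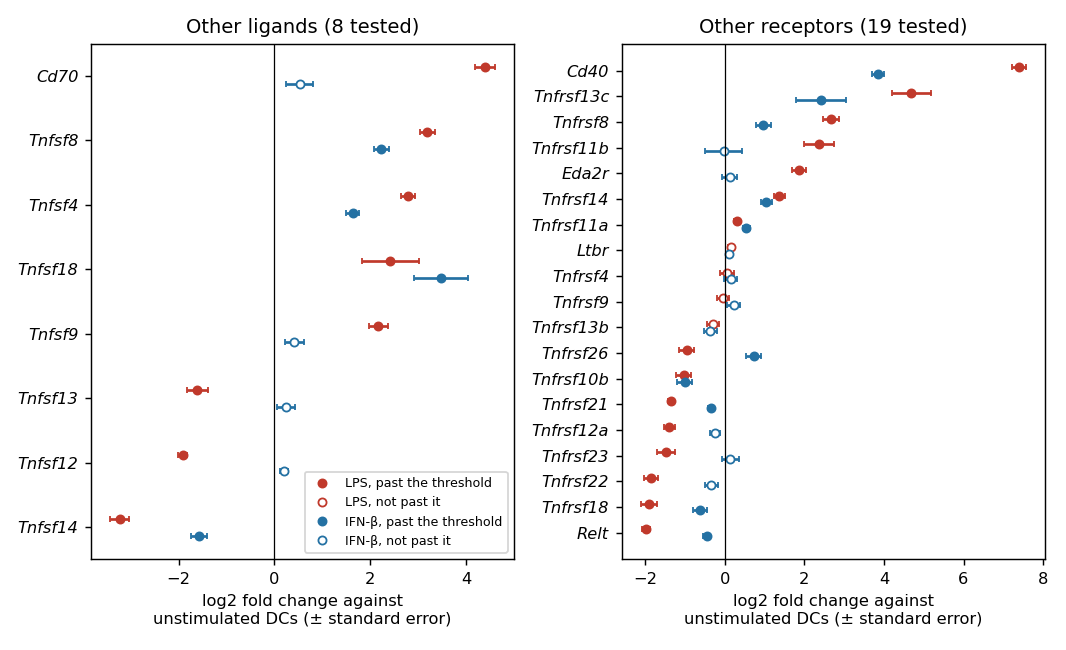
Log2 fold change against unstimulated DCs (horizontal axes, bars of 1 standard error) of the 8 other ligand genes and the 19 other receptor genes that were tested, for LPS (red) and IFN-β (blue), filled where past the threshold. *Cd40* lies far to the right of the other receptors, at 7.39 and 3.85, and *Tnfsf14* is leftmost of the ligands, at -3.23 and -1.57.

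The proteins of signalling close to the receptors, from adaptors to kinases further downstream, were listed as 26 genes, all of them tested. LPS raised 18 and lowered 4 of them, IFN-β raised 15 and lowered 2, and the medians were 0.76 and 0.27. By library size only, LPS raised 12 and lowered 11 and IFN-β raised 9 and lowered 8. *Cflar*, which encodes the caspase-8 inhibitor c-FLIP, rose most under each stimulus, by 3.32 (SE 0.10) and 1.66 (SE 0.10). *Traf1*, an adaptor of TNF receptor 2, rose by 2.49 and 0.77. *Ripk3*, the kinase of necroptosis, had the largest fall under LPS, -0.99, and 0.05 under IFN-β (adjusted p = 0.527). *Map3k5*, the kinase ASK1, had the largest fall under IFN-β, -0.36, and rose under LPS by 1.62. For IFN-β against LPS, 3 of the 26 genes were higher and 14 lower.

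Of 12 genes that restrain TNF receptor signalling, LPS raised 10 and lowered 1, and IFN-β raised 8 and lowered none, with medians of 0.99 and 0.47. With scaling by library size only, LPS raised 7 and lowered 4, and IFN-β changed 5 of them, 4 up and 1 down. *Tnfaip3*, which encodes the ubiquitin-editing enzyme A20, had the largest rise under both, with 3.13 and 0.99, and *Tnfaip8l2* the fall under LPS, -1.21.

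Of 9 genes that act on the stability or translation of *Tnf* mRNA, LPS raised 7 and lowered 2, and IFN-β raised 4 and lowered 1, with medians of 0.68 and 0.11. By library size only the split was 4 up and 3 down for LPS and 2 up and 3 down for IFN-β. *Zc3h12a*, the RNase regnase-1, rose under LPS by 2.55 and had 0.11 under IFN-β (adjusted p = 0.434). *Zfp36*, which encodes tristetraprolin, rose by 2.08 under LPS (adjusted p = 7.3e-06) and by 0.60 under IFN-β (adjusted p = 0.0354). *Mapkapk2*, the kinase that inactivates tristetraprolin, rose by 2.03 and 0.92. *Zfp36l2* had the largest fall under LPS at -1.43, and *Zfp36l1* the fall under IFN-β at -0.31. Without unstimulated library C, and likewise without IFN-β library B, IFN-β changed 3 of the 9.

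Of 10 genes for the shedding and cleavage of ligands and receptors, LPS raised 7 and lowered 2, and IFN-β raised 5 and lowered none, with medians of 0.98 and 0.50. Over all 16260 genes tested, 11084 were called under LPS and 7631 under IFN-β. *Adam17*, the protease that releases TNF, rose by 1.07 under LPS (adjusted p = 5.2e-06) and by 0.63 under IFN-β (adjusted p = 6.4e-04). *Rhbdf2*, which encodes iRhom2, the partner that brings ADAM17 to the cell surface, rose by 2.11 and 0.96. *Sppl2a*, an intramembrane protease of the TNF stalk, had the largest rise under IFN-β at 1.18 and rose by 1.32 under LPS, and *Sppl2b* had the largest fall under LPS, -0.57.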

How the data were processed

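Bone marrow-derived DCs in 3 groups of 3 libraries (unstimulated, LPS, IFN-β) were compared from the table of counts per gene that the authors deposited. Per the submitters' processing notes, reads were trimmed with Trim Galore 0.6.0 and mapped with STAR 2.7.8a to mm10 (GRCm38), and the study's methods name another STAR release. The authors took counts per gene from STAR for GENCODE annotation, with no normalization. The strand column used is not given in the sources used here. Gene coordinates and exon lengths came from GENCODE M21, which held 55144 of the 55471 identifiers, so a gene revised between releases may have another length here.

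Counts were tested as deposited with edgeR 4.0.16 (R 4.3.3): TMM factors, filterByExpr, and the quasi-likelihood F-test on 1 model of all 9 libraries with 1 term per group. P-values were adjusted by Benjamini-Hochberg over all 16260 genes tested, with a threshold of 0.05. CPM used the TMM-scaled library size, whose factors ran from 1.18 to 1.26 in unstimulated, 0.783 to 0.841 in LPS and 0.977 to 1.02 in IFN-β libraries. A level of 3 counts corresponds to 0.0674 to 0.106 CPM. Permutation tests used log2(CPM + 0.5). The test was run on simulated data before use.

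The deviations of libraries with the same letter from their group means correlated in all 9 pairs (Pearson r from 0.134 to 0.546), so the letters pair the libraries. This pairing comes from the data and not from the labels, and the fit with the replicate block stands among the alternatives. Replicate libraries differed by more than sampling noise.

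The members and the lists of other genes were chosen with earlier results of these data known. Named from each list were the genes past the threshold with the largest rise and fall under each stimulus, the neighbours of members, 7 genes of known role and, for each member, the 2 genes closest to it. The genes *Tnfrsf13b*, *Tnfrsf13c*, *Tnfrsf17*, *Tnfrsf25*, *Mapkapk2*, *Tnfsf8*, *Cd247*, *Thy1*, *Cd209a*, *Pdgfrb* and those of the TRAIL and lymphotoxin receptors were named for their role beside a member or a marker list, after their values had been seen. *Tnfrsf11a*, *Tnfrsf14*, *Tnfrsf18* and *Tnfrsf21* were also named after their values had been seen, for calls in the same direction under both stimuli. Promoter windows came from RefSeq (GRCm38.p6) and matched all 9 members. Alternatives, 16 in all, changed the scaling, tool, filter, libraries and block.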

Additional observations from a re-analysis of the deposited data

How the results depend on the processing

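Over 16 alternatives, 422 of 432 log2 fold changes of the 9 genes kept their direction and their side of the threshold. A count was taken as kept if it lay within 1.5 times the main count, both directions together. That held for all 48 counts of members past the threshold and 285 of 288 counts of other lists. It is a wide margin, within which calls of single members changed, as given next. With scaling by library size only, *Ltb* under LPS came to -1.07 (adjusted p = 0.00272), *Fas* under IFN-β to 0.13 (0.093), *Tnfsf10* and *Tnfrsf1a* for IFN-β against LPS to -0.44 (0.0839) and -0.12 (0.159), and the restraining genes changed by IFN-β numbered 5 and not 8. That scaling also moved the split within lists, as for the other receptors under LPS, from 7 up and 8 down to 6 up and 13 down, and the receptor-proximal genes for IFN-β against LPS, from 3 up and 14 down to 10 up and 11 down. With 1 library left out, *Tnfsf10* for IFN-β against LPS ranged from -0.88 to -0.47 and *Tnfsf13b* under IFN-β, which was not called, from -0.15 to 0.056, and the genes acting on *Tnf* mRNA that IFN-β changed ranged from 3 to 5. With the replicate block, 8, 6 and 8 members passed for LPS, IFN-β and IFN-β against LPS, the same numbers as without it, and over all genes 11950, 9151 and 9425 passed in place of 11084, 7631 and 7989. The block changed no call of a member. RPKM by the longest transcript, an alternative chosen after seeing the data, exchanged *Tnf* with *Tnfrsf1a* and *Lta* with *Ltb* in unstimulated DCs and *Tnfsf10* with *Fas* and *Ltb* with *Tnfsf13b* in IFN-β-treated DCs. The cause of these shifts was not tested. Depth limits *Ltb*, *Lta* and *Tnfsf13b* most, at 13 to 98 counts in the groups where they were low.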

Other observations

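After the values had been seen, the levels per length of 28 receptor genes of the superfamily were also summed in each library. They came to 432 RPKM without stimulation (range over libraries 376 to 501), 1312 RPKM under LPS (1185 to 1446) and 685 RPKM under IFN-β (646 to 748). *Tnfrsf1b* made up 46.5%, 53.9% and 55.1% of these sums, the largest share of the 28 genes in each group. *Cd40* went from 0.437% to 24.1% under LPS and 3.96% under IFN-β, and *Tnfrsf9*, the receptor 4-1BB, was at 9.77%, 3.11% and 7.09%. The level of *Tnfrsf9* itself had log2 fold changes of -0.04 under LPS (adjusted p = 0.816) and 0.22 under IFN-β (adjusted p = 0.276). A share can fall while the level of the gene does not, since the sums differ between groups. *Tnfrsf1a* was at 10.6%, 6.63% and 9.64% and *Fas* at 2.68%, 3.21% and 2.27%. No test was made on these shares, and transcript levels do not give protein levels.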
